A study of Mus musculus with 8 samples.

Results

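Expression of genes that mark alternatively activated macrophages was described in 8 MT-ret tumours: Mrc1, Arg1, Retnla, Chil3, Cd163, Folr2, Mgl2, Stab1, Il4ra and Clec10a, which are 10 of the 22840 genes measured. The genes were chosen as markers of this state because Mrc1 and Arg1 had stood higher in anti-Ang2 tumours of these same arrays. The anti-Ang2 and IgG values of the 10 genes are therefore given as a description, with no test. Each gene had 1 probe set, and Chil3 is annotated on the array under its older symbol Chi3l3. All tumours grew in C57BL/6N mice from fragments of MT-ret tumour placed on the ventral flank, and RNA came from whole tumour tissue, 1 array per tumour. MT-ret is a transgenic line in which the Ret oncogene gives rise to melanoma. From day 7 after implantation until the primary tumour was resected, mice were given an Ang2-blocking antibody (anti-Ang2, 4 tumours) or its isotype control (IgG, 4 tumours). The labels name no sex, age or dose, and they do not say whether the grafted fragments came from 1 donor tumour.

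Macrophages exposed to interleukin 4 or interleukin 13 enter a state called alternative activation. Both cytokines bind receptors that contain the chain encoded by Il4ra, and the signal passes through the transcription factor Stat6. In mice the state is read from the lectin receptor gene Mrc1, the arginine-degrading enzyme gene Arg1 and the secreted proteins encoded by Retnla and Chil3. Macrophages with this profile are common in tumours, often beside vessels, and some of their precursors carry Tie2, the receptor of Ang2.

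Promoters of 8 of the 10 genes were found in the RefSeq promoter table (build GRCm38.p6), as 9 windows that run from 250 bases before to 50 bases after a transcript start. Arg1 and Clec10a had no entry. The windows of 3 genes are shown, that of the gene with the largest difference (Mrc1) and those of the secreted markers, whose windows hold the STAT letters. Capitals mark matches, on either strand, to the Stat6 spacing (TTC and GAA with 4 bases between), the shorter STAT spacing TTCNNNGAA, the C/EBP letters TTNCNNAA, the PU.1 letters GAGGAA and the hypoxia letters ACGTG. The C/EBP and PU.1 letters can overlap each other, and capitals run on where matches touch.
Mrc1, chr2:14229164-14229463, plus strand: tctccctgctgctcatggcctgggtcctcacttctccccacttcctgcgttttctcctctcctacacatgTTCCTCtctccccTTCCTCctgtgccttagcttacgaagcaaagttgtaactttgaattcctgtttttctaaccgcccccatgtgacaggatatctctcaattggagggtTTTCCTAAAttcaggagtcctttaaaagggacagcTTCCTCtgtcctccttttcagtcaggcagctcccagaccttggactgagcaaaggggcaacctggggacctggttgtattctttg
Retnla, chr16:48842359-48842658, plus strand: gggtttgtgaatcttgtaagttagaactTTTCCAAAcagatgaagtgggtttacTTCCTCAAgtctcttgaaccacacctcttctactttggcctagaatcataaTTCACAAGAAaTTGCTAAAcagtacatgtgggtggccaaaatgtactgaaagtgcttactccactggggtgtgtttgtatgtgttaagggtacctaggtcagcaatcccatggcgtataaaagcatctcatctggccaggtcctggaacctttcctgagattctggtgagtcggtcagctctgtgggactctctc
Chil3, chr3:106167515-106167814, minus strand: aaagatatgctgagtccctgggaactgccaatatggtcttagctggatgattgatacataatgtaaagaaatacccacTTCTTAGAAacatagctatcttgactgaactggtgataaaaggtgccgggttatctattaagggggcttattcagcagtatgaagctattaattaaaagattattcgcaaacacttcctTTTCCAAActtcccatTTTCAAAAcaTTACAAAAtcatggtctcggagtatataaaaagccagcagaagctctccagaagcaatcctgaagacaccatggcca
The Stat6 spacing was found in the Retnla window alone among the 9, where the match TTCACAAGAA begins 145 bases upstream of the start, while 6.95% of all 32851 windows hold it. The shorter STAT spacing was found once, in the Chil3 window (TTCTTAGAA, 172 bases upstream), and 8.3% of all windows hold it. The Mrc1 window held neither. It held 3 matches to the PU.1 letters, the binding core of a macrophage lineage factor, beginning 180, 167 and 35 bases upstream, and 2 overlapping C/EBP matches that begin 70 and 69 bases upstream. PU.1 letters occur in 4 of the 9 windows against 28.3% of all windows, and C/EBP letters in 6 of 9 against 40.7%. The hypoxia letters, searched only as ACGTG on either strand, occur in 1 of 9, that of Cd163, against 19.6%. Variants of these letters, such as GCGTG, were not searched.

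The 10 genes differed first in how visible their signal was. As a reference for probe sets with little or no transcript, the 1081 olfactory receptor genes on the array had gene means with a median of 5.28 log2 intensity units and a 95th percentile of 5.87. Values under that percentile are called the olfactory receptor range here. This reference was chosen after the values had been seen, and 41.1% of all genes lie under that percentile. Mrc1, Arg1, Folr2, Stab1 and Il4ra had means above it. Retnla, Chil3, Cd163, Mgl2 and Clec10a had means under it, from 5.50 for Retnla to 5.82 for Cd163. A difference of the last 5 genes is therefore not one between clearly visible signals. All 20 genes of the general macrophage list lay above the same percentile, Cd68 and the lysozyme gene Lyz2 among them, and so did all 7 melanocyte lineage genes.

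The mannose receptor gene Mrc1 and the arginase gene Arg1 stood higher in every anti-Ang2 tumour than in any IgG tumour. Folr2, a folate receptor gene of tissue macrophages, had a similar mean difference but overlapping groups. The other 7 genes lay within 0.30 log2 units of equality between the group means. Groups did not overlap for 2 of the 10 genes, both higher in anti-Ang2. Over all genes 3.74% had groups that did not overlap, and 2.28% had groups that did not overlap with anti-Ang2 higher, but since the genes were chosen on this contrast nothing is read from the comparison.

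Mrc1 encodes the C-type mannose receptor CD206, which takes up mannosylated glycoproteins (probe set 17367102, chromosome 2). Its log2 intensity was 7.69, 8.06, 7.67 and 7.66 in anti-Ang2 replicates 1 to 4. In IgG replicates 1 to 4 it was 7.37, 6.32, 6.97 and 6.79. The lowest anti-Ang2 tumour was thus above the highest IgG tumour, IgG replicate 1, and the IgG tumours spread more widely. The means were 7.77 ± 0.19 under anti-Ang2 and 6.86 ± 0.44 under IgG (SD, n = 4 each), a difference of 0.91 log2 units with a standard error (SE) of 0.19 and a fold of 1.87. Leaving out 1 array at a time gave differences between 0.72, when IgG replicate 2 was left out, and 1.08, when it was IgG replicate 1. In bulk tissue, more macrophages and more Mrc1 RNA per macrophage cannot be told apart.

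Arg1 encodes arginase, which turns arginine into ornithine and so competes with nitric oxide synthesis (probe set 17239845, chromosome 10). Its log2 intensity was 7.37, 6.86, 6.97 and 6.82 in anti-Ang2 replicates 1 to 4. In IgG replicates 1 to 4 it was 6.22, 6.34, 6.68 and 6.29. Anti-Ang2 replicate 1 was the highest tumour and IgG replicate 1 the lowest, and the nearest tumours of the 2 groups were anti-Ang2 replicate 4 and IgG replicate 3. The means were 7.01 ± 0.25 and 6.38 ± 0.21 (SD, n = 4 each), a difference of 0.63 log2 units (SE 0.14) and a fold of 1.54. Leaving out anti-Ang2 replicate 1 gave 0.50 and leaving out IgG replicate 3 gave 0.73, the extremes over the 8 arrays left out in turn. In the authors' deposited table the ratio of linear means was 1.82 for Mrc1 and 1.55 for Arg1.

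**Figure D1:**
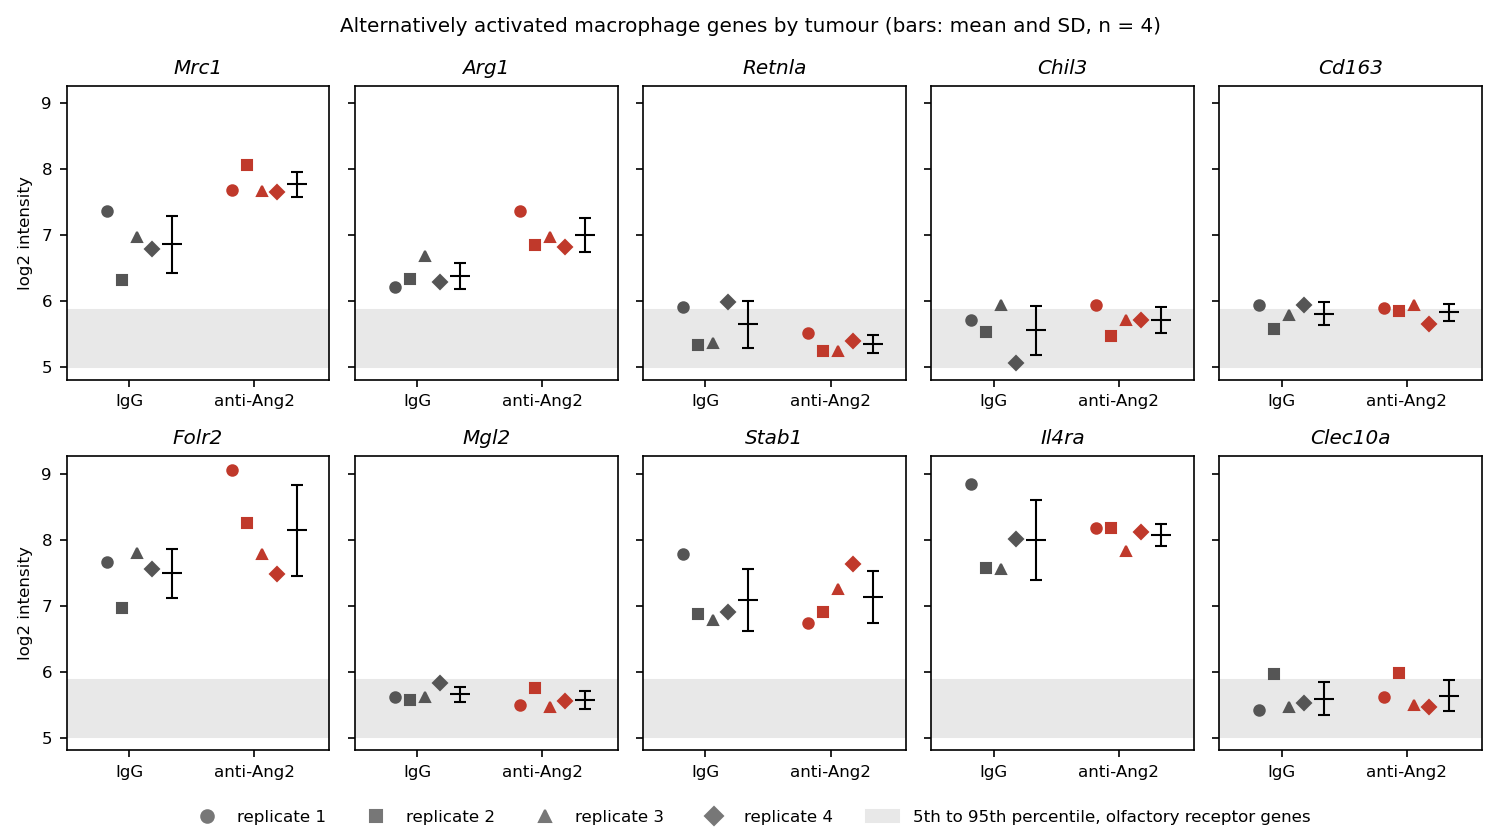
Log2 intensity (vertical axis) of each of the 10 genes in the IgG (grey) and anti-Ang2 (red) tumours, 1 point per tumour with the replicate given by its shape; black bars are the mean and SD (n = 4), and the shaded band spans 5.01 to 5.87, the 5th to 95th percentile of olfactory receptor gene means. The 2 groups are separate for Mrc1 and Arg1, and 5 genes lie in or at the edge of the band.

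The 3 other scavenging and uptake receptors, Folr2, Stab1 and Cd163, had overlapping groups. Folr2 (probe set 17493949, chromosome 7) had log2 intensities of 9.06, 8.25, 7.79 and 7.48 in anti-Ang2 replicates 1 to 4 and of 7.67, 6.96, 7.80 and 7.55 in IgG replicates 1 to 4. Anti-Ang2 replicates 1 and 2 were above all IgG tumours, while anti-Ang2 replicates 3 and 4 lay among them. The difference was 0.65 (SE 0.30, fold 1.57), and it lay between 0.35 without anti-Ang2 replicate 1, the highest tumour, and 0.87 when anti-Ang2 replicate 4 was left out. Folds of at least 1.5 toward anti-Ang2 were seen for 3 of the 10 genes, Mrc1, Folr2 and Arg1. Over all genes 0.425% had such a fold, a figure given for scale only because the choice of genes used this contrast.

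Stab1 encodes stabilin-1, a scavenger receptor of macrophages and sinusoidal endothelium (probe set 17304523, chromosome 14, with an annotation that is cut short). Its log2 intensity was 6.74, 6.90, 7.25 and 7.63 in anti-Ang2 replicates 1 to 4 and 7.79, 6.88, 6.78 and 6.90 in IgG replicates 1 to 4. IgG replicate 1 was the highest tumour and stood apart from the other 3 IgG tumours. The difference was 0.05 (SE 0.24) with all arrays, 0.28 without IgG replicate 1 and -0.12 when anti-Ang2 replicate 4 was left out, and it was also below 0 without IgG replicate 2 (-0.02), 3 (-0.06) or 4 (-0.02). Cd163, the haemoglobin scavenger receptor (probe set 17462843, chromosome 6), ranged from 5.65 to 5.94 in anti-Ang2 and from 5.58 to 5.94 in IgG tumours, with a difference of 0.02 (SE 0.11) that lay between -0.06 and 0.08 when 1 array was left out.

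Il4ra, the receptor chain that senses interleukin 4 and interleukin 13 (probe set 17482943, chromosome 7), was clearly visible in every tumour. Its log2 intensity was 8.18, 8.18, 7.83 and 8.12 in anti-Ang2 replicates 1 to 4 and 8.85, 7.58, 7.56 and 8.01 in IgG replicates 1 to 4. Again IgG replicate 1 was the highest of the 8, and the groups overlapped. The difference was 0.08 (SE 0.24). It was 0.36 without IgG replicate 1 but below 0 without IgG replicate 2 (-0.06) or IgG replicate 3 (-0.07), and the ratio in the authors' deposited table was 0.987, so it had no settled direction.

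Neither secreted marker separated the groups, and both had little signal. Retnla encodes the resistin-like protein RELM-alpha, a strongly Stat6-driven product in mouse macrophages (probe set 17326069, chromosome 16), and its window above holds the Stat6 spacing. Its log2 intensity was 5.52, 5.25, 5.24 and 5.39 in anti-Ang2 replicates 1 to 4 and 5.91, 5.33, 5.36 and 5.99 in IgG replicates 1 to 4. IgG replicates 1 and 4 were the highest tumours, the groups overlapped, and the difference was -0.30 (SE 0.16). It was -0.19 without IgG replicate 4 and -0.41 when IgG replicate 2 was left out. Chil3 encodes the chitinase-like lectin Ym1 (probe set 17408897, chromosome 3), and its close paralog Chil4 could share its signal. Chil3 ranged from 5.47 to 5.95 in anti-Ang2 and from 5.06 to 5.94 in IgG tumours, with a difference of 0.15 (SE 0.17) that lay between -0.02 without IgG replicate 4, its lowest tumour, and 0.28 when IgG replicate 3 was left out. Chil4 averaged 5.32 ± 0.12 under anti-Ang2 and 5.55 ± 0.06 under IgG (SD, n = 4 each), and its difference was -0.22 (SE 0.09, limma adjusted p = 0.689), with its mean in the olfactory receptor range as for Chil3.

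The galactose-binding lectins Mgl2 and Clec10a, neighbouring paralogs on chromosome 11 that mark alternatively activated macrophages and dermal dendritic cells, showed no separation. Mgl2 (probe set 17251959) ranged from 5.46 to 5.76 in anti-Ang2 and from 5.57 to 5.83 in IgG tumours, a difference of -0.09 (SE 0.10). Clec10a (probe set 17251978, annotation cut short) ranged from 5.47 to 5.98 and from 5.42 to 5.96, a difference of 0.05 (SE 0.15) that lay between -0.07 and 0.17 when 1 array was left out. Replicate 2 was the highest Clec10a tumour in both groups. Their probe sets may share signal, as the proteins are closely related.

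Across the 10 genes the median difference was 0.06, beside 0.01 over all genes, with 8 genes above 0 and 2 below. Over all genes 53.5% had a difference above 0. Without IgG replicate 2 the number above 0 was 5 of 10, as several differences lie close to 0. The median was 0.24 without IgG replicate 1 and 0.01 when IgG replicate 3 was left out.

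**Figure D2:**
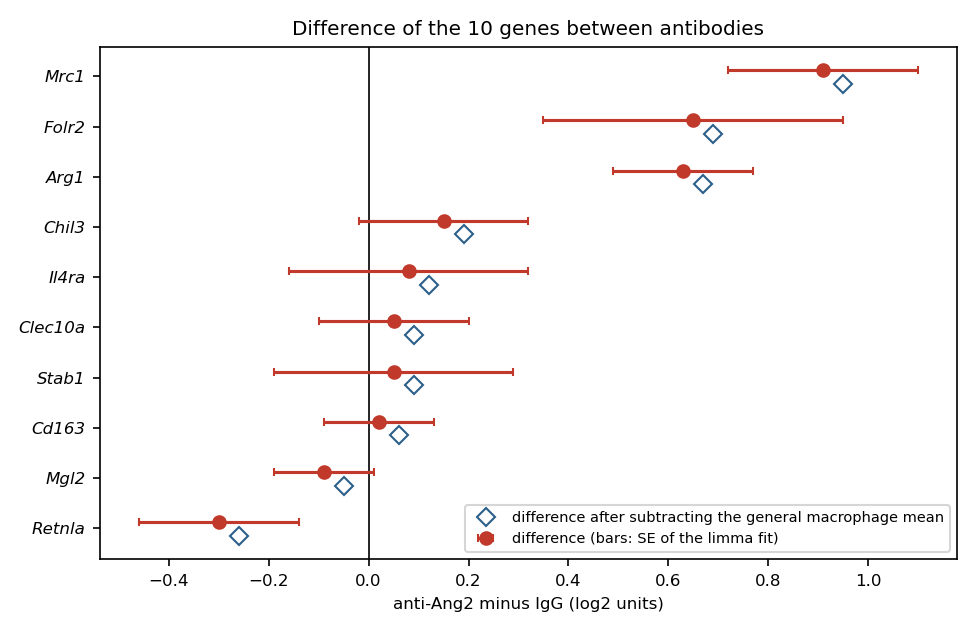
Difference of the group means, anti-Ang2 minus IgG in log2 units (horizontal axis), for each gene; red circles are the differences with the SE of the limma fit as bars, and open diamonds are the differences after each tumour's general macrophage mean was subtracted. Mrc1, Folr2 and Arg1 lie at 0.63 to 0.91 and the other genes at -0.30 to 0.15.

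General macrophage transcripts were measured beside the 10 genes to show whether the tumours differed in macrophage signal as such. The mean of the 20 general macrophage genes was 7.26 ± 0.15 log2 units under anti-Ang2 and 7.30 ± 0.22 under IgG (SD over tumours, n = 4 each). IgG replicate 1 had the highest mean, 7.63, and anti-Ang2 replicate 4 the next, 7.46, while the other 6 tumours lay between 7.12 and 7.27. In this list 8 of 20 genes were above 0 and 12 below, while 53.5% of all genes were above 0. The median difference of the list was -0.04, beside 0.01 over all genes. Without IgG replicate 1 the number above 0 was 14 of 20, and it was 6 when anti-Ang2 replicate 2 was left out. Limma's adjusted p was under 0.05 for 0 of the 20 genes, as it was for 0% of all 22840 genes (smallest adjusted p = 0.254). At an unadjusted p under 0.05, limma gave 2 macrophage genes higher and 1 lower, beside 4.09% and 3% of all genes (934 and 685 genes, 7.09% in either direction). After each array was centred on its median these counts were 743 higher and 815 lower.

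The lysosomal glycoprotein gene Cd68 was the 1 gene of the 20 whose groups did not overlap, beside 3.74% of all genes. Its log2 intensity was at least 8.68 in the anti-Ang2 tumours, and in IgG replicates 1 to 4 it was 8.37, 8.34, 8.67 and 8.25. The groups thus almost touched at IgG replicate 3, and the difference was 0.42 (SE 0.11, limma adjusted p = 0.546). The scavenger receptor gene Msr1 differed by 0.33 (SE 0.12, limma adjusted p = 0.67). In the other direction, the efferocytosis receptor gene Mertk differed by -0.60 (SE 0.19, limma adjusted p = 0.62) and the membrane protein gene Ms4a7 by -0.31 (SE 0.15, limma adjusted p = 0.724). Mertk averaged 9.19 under anti-Ang2 and 9.78 under IgG, the highest level in this list, and which cells carried it was not tested. The complement genes C1qa, C1qb and C1qc, made in quantity by tissue macrophages and named here after their values were seen, were at -0.02, 0.01 and 0.12.

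When each tumour's general macrophage mean was subtracted, the difference of Mrc1 was 0.95 and that of Arg1 0.67, and Folr2 was at 0.69. Relative to that mean, Mrc1 was 0.51, 0.79, 0.55 and 0.20 in anti-Ang2 replicates 1 to 4 and -0.26, -0.92, -0.16 and -0.41 in IgG replicates 1 to 4. Every anti-Ang2 tumour thus lay above every IgG tumour on this scale. As Mrc1 was chosen on this contrast and the macrophage mean hardly differed (7.26 under anti-Ang2, 7.30 under IgG), this separation is a description only. Arg1 did not keep that separation, since anti-Ang2 replicate 4 (-0.64) fell below IgG replicate 3 (-0.45).

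**Figure D3:**
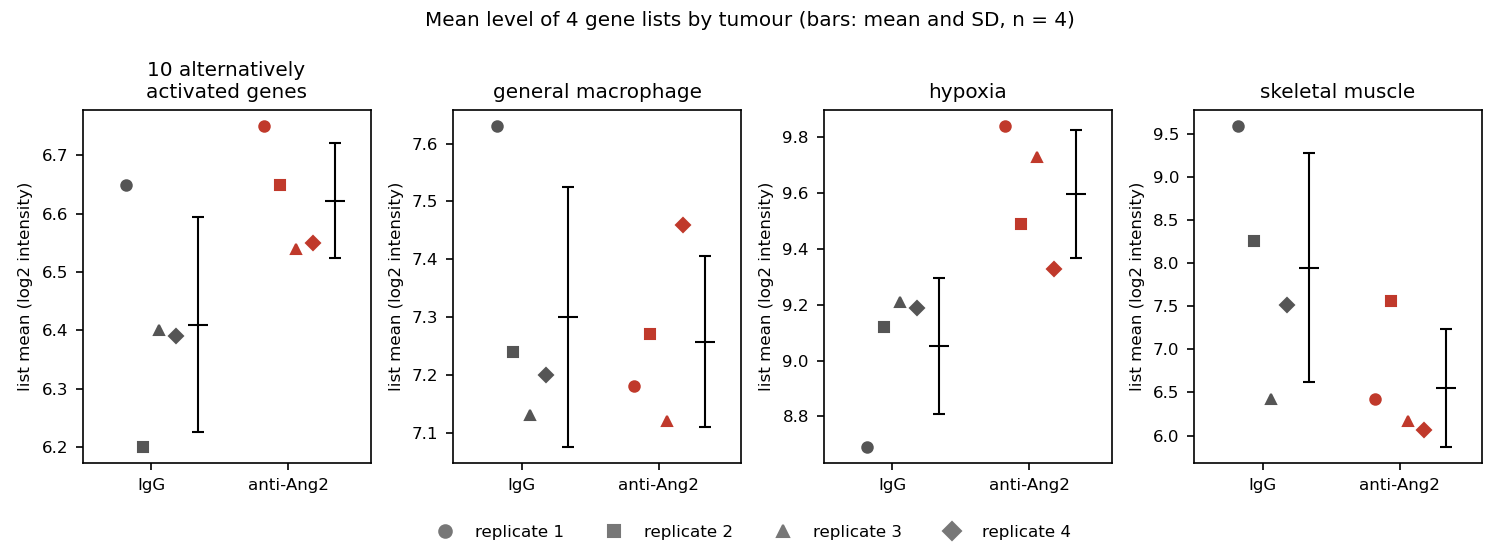
Mean log2 intensity (vertical axes, each with its own range) of 4 gene lists in every tumour, IgG in grey and anti-Ang2 in red, with the replicate as the point shape and the mean and SD (n = 4) as black bars. IgG replicate 1 has the highest macrophage and muscle means and the lowest hypoxia mean.

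Within the groups, the spread of the 10 genes between tumours was compared with that of the general macrophage mean, after each group's own mean was removed so that the contrast between antibodies played no part. Of 10 relations, Stab1 (Pearson's r = 0.86) and Il4ra (r = 0.82) had the highest correlations over the 8 tumours. For Stab1 the two-sided exact permutation p was 0.0399 (adjusted 0.269 over the 10 relations), with Spearman's rho = 0.52 (exact permutation p = 0.233, adjusted 0.775). For Il4ra the exact permutation p was 0.0538 (adjusted 0.269), with rho = 0.76 (exact permutation p = 0.0486, adjusted 0.243). Without IgG replicate 1 and anti-Ang2 replicate 4, the 2 tumours farthest from the median macrophage mean, r was -0.34 for Stab1 and 0.51 for Il4ra, so the relation of Stab1 rests on those 2 tumours.

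None of the 10 relations had an adjusted p under 0.05, and whether Mrc1 and Arg1 differ in this respect was not tested. Mrc1 had r = 0.50 (exact permutation p = 0.37, adjusted 0.924) with rho = 0.14 (exact permutation p = 0.781, adjusted 0.866), and r = -0.04 without the same 2 tumours. Arg1 had r = -0.60 (exact permutation p = 0.101, adjusted 0.336) with rho = -0.79 (exact permutation p = 0.0382, adjusted 0.243), and r = -0.53 without them. Arg1 was thus lowest in each group in a tumour with the highest macrophage mean of its group. The other 6 genes had r between -0.22 and 0.44, with adjusted exact permutation p-values from 0.938 to 0.99. The smallest p that the 576 assignments within groups can give is 0.00174.

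**Figure D4:**
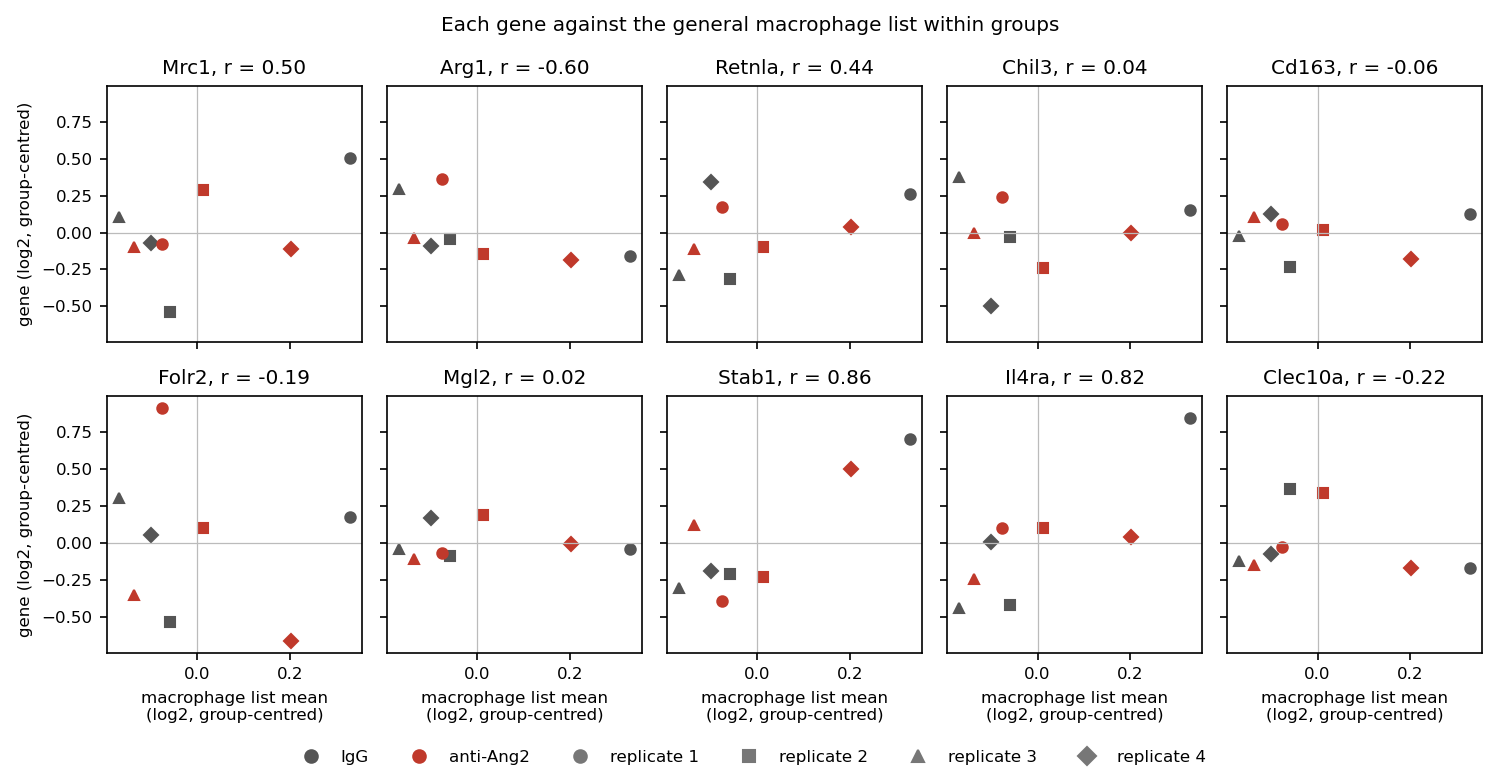
Level of each gene (vertical axis) against the mean of the general macrophage list (horizontal axis), both in log2 units after each group's mean was removed; each point is 1 tumour, IgG in grey and anti-Ang2 in red, with the replicate as its shape. IgG replicate 1, at the far right, is the highest point for Mrc1, Stab1 and Il4ra.

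Genes whose pattern over the 8 tumours was most like that of Mrc1 or Arg1 were sought in the same group-centred values among 10640 genes with a mean above the median gene. For Mrc1 these were Ggct (r = 0.981), Ubqln4 (0.973), Fam83h (0.972), Ssx2ip (0.972) and Ppa2 (0.951). Their own differences between antibodies were between -0.19 and 0.02. For Arg1 they were Stx5a (r = 0.97), Ttc27 (0.963), the platelet chemokine gene Ppbp (0.963), Serpina3c (0.962) and Gpr108 (0.959), with differences from -0.03 to 0.29. With 8 tumours and this many candidates, high values of r are a description of these arrays. None of the 20 general macrophage genes was among the 10, which says little when the candidates are so many.

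The upstream pathway offered little signal for its ligands. Il4 averaged 5.48 ± 0.12 log2 units under anti-Ang2 and 5.44 ± 0.02 under IgG, and Il13 at 5.87 ± 0.21 and 5.82 ± 0.05 (SD, n = 4 each), and the means of both over the 8 tumours lay in the olfactory receptor range. In the list of 21 genes for interleukin 4 and interleukin 13 signalling, 19 were measured here. Stat6 and Jak3 were not among the genes measured, so nothing can be said of their levels. Of the 19, 13 were above 0 and 6 below with a median of 0.07, while 53.5% of all genes were above 0. Of the 19 genes, 6 lay in the olfactory receptor range. Limma called 0 of 19 over all genes. At an unadjusted p under 0.05, beside 4.09% and 3% of all genes, 3 were higher and 0 lower. Those 3 were Il33, an alarmin released by damaged tissue cells (0.66, SE 0.27, limma adjusted p = 0.69), Il2rg, the common gamma chain (0.31, SE 0.13), and Kdm6b, a histone demethylase (0.31, SE 0.14). Irs2, an adaptor of the interleukin 4 receptor, was at -0.36 (SE 0.17).

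Other genes reported in alternatively activated macrophages split evenly, 8 of 16 above 0 and 8 below, with a median of 0.02. Over all genes 53.5% were above 0. Of the 16 genes, 7 lay in the olfactory receptor range. Limma called 0 of 16 over all genes. At an unadjusted p under 0.05, 3 were higher and 1 lower, beside 4.09% and 3% of all genes. F13a1, the coagulation factor XIII subunit made by resident macrophages, had log2 intensities of 7.79, 7.88, 7.78 and 7.13 in anti-Ang2 replicates 1 to 4 and 7.31, 5.99, 7.04 and 6.68 in IgG replicates 1 to 4. As for Mrc1, IgG replicate 1 was the highest IgG tumour and IgG replicate 2 the lowest of all, but the F13a1 groups overlapped (difference 0.89, SE 0.26, limma adjusted p = 0.585). The cholesterol hydroxylase gene Ch25h differed by 0.56 (SE 0.14, limma adjusted p = 0.509) with no overlap between the groups. It was the 1 gene of the 16 without overlap, beside 3.74% of all genes. The macrophage elastase gene Mmp12 differed by 0.78 (SE 0.32, limma adjusted p = 0.69).

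Perivascular macrophage genes went both ways, 3 of 7 measured above 0, beside 53.5% of all genes, with a median of -0.03. Limma called 0 of 7, with 1 higher at an unadjusted p under 0.05, beside 4.09% of all genes. Cbr2, a carbonyl reductase of resident macrophages, was at 0.49 (SE 0.21, limma adjusted p = 0.70), and it too was highest among IgG tumours in replicate 1 (7.36) and lowest in replicate 2 (6.28). Tek, which encodes Tie2, was at -0.12 (SE 0.13), Cd209a at -0.16 (SE 0.11) and Vsig4 at 0.09 (SE 0.11). The mean of Vsig4 lay in the olfactory receptor range. Lyve1, named after its value was seen, was at -0.04 and is also in the lymphatic endothelium list. In whole tumour tissue, cells other than macrophages can contribute to these values, and their share was not tested.

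Genes of classical activation, the opposed state in textbooks, were above 0 in 10 of 14 measured, beside 53.5% of all genes, with a median of 0.04. Limma called 0 of them. At an unadjusted p under 0.05, 3 were higher and 0 lower, beside 4.09% and 3% of all genes. Of the 14 genes, 6 lay in the olfactory receptor range, Tnf among them. Nos2, the inducible nitric oxide synthase that uses the same substrate as arginase, was 6.25, 5.92, 5.91 and 6.10 in anti-Ang2 replicates 1 to 4 and 5.78, 5.64, 5.51 and 5.86 in IgG replicates 1 to 4. Its groups did not overlap, with a difference of 0.35 (SE 0.11, limma adjusted p = 0.616), although its mean of the IgG tumours, 5.70, lies in the olfactory receptor range. Nos2 was the 1 gene of the 14 without overlap, beside 3.74% of all genes. Ptgs2, the inducible cyclooxygenase, differed by 1.00 (SE 0.36, limma adjusted p = 0.67), the chemokine gene Cxcl9 by 0.46 (SE 0.17) and Tnf by 0.14 (SE 0.09). In arginine metabolism 8 of 14 measured genes were above 0, beside 53.5% of all genes, with a median of 0.07 and 0 called. Nos2 was the 1 gene higher at an unadjusted limma p under 0.05, beside 4.09% of all genes. The arginine transporter gene Slc7a1 was at 0.33 (SE 0.17), the antizyme inhibitor gene Azin1 at 0.42 (SE 0.23) and Ddah1 at 0.18 (SE 0.10), while the second arginase gene Arg2 was at 0.07.

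The other genes of the mannose receptor family, which encode endocytic receptors of the same build, were smaller in their differences. Ly75 was at 0.23 (SE 0.09, limma adjusted p = 0.69), Pla2r1 at 0.16 (SE 0.10) and Mrc2 at -0.02 (SE 0.14). The mean of Ly75 lay in the olfactory receptor range. All 3 were measured, 2 above 0 and 1 below with a median of 0.16, while 53.5% of all genes were above 0. Limma called 0, and 1 was higher at an unadjusted p under 0.05, beside 4.09% of all genes.

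**Figure D5:**
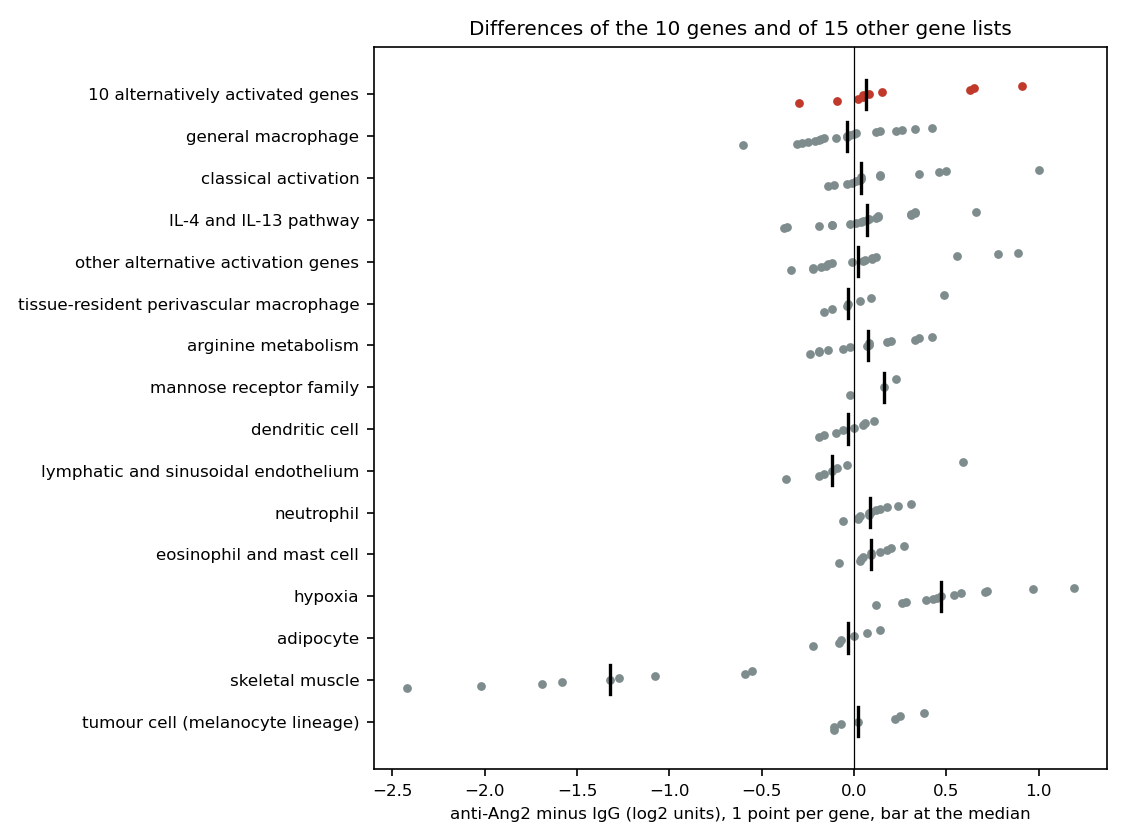
Difference between group means, anti-Ang2 minus IgG in log2 units (horizontal axis), with 1 point per gene for the 10 genes (red) and 15 other lists (grey) and a black bar at each list's median. Most lists centre near 0, the hypoxia list on 0.47 and the skeletal muscle list on -1.32.

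Other cells that can carry some of the 10 genes were measured by their own lists. Limma called 0 genes over all genes in each of them. For scale, 53.5% of all genes were above 0. At an unadjusted p under 0.05 limma gave 4.09% of all genes as higher and 3% as lower. Mrc1 and Stab1 are also made by lymphatic and sinusoidal endothelium, whose list had 1 of 7 genes above 0 and a median of -0.12 (1 higher and 1 lower at an unadjusted p under 0.05). Its list mean ranged from 6.26 to 6.47 in anti-Ang2 and from 6.30 to 6.56 in IgG tumours. Pdpn was at 0.59 (SE 0.15) and was the 1 gene of the 7 without overlap between the groups, beside 3.74% of all genes. Mmrn1 was at -0.37 (SE 0.14), Flt4 at -0.19 and Stab2 at -0.12. Of these, Stab2 lay in the olfactory receptor range. Dendritic cell genes had a median of -0.03 with 4 of 8 above 0 and 0 at an unadjusted p under 0.05, among them Flt3 at -0.19, Batf3 at 0.11 and Clec9a at -0.06. Of the 8 genes, 4 lay in the olfactory receptor range, with Flt3, Batf3 and Clec9a among them. Neutrophil genes, which matter because these cells can hold Arg1 and Chil3 RNA, were above 0 in 11 of 12 with a median of 0.08 and 1 at an unadjusted p under 0.05, Mmp9 (0.31, SE 0.10). The neutrophil list mean was 5.66 to 5.81 in anti-Ang2 and 5.58 to 5.62 in IgG tumours, 11 of the 12 genes lay in the olfactory receptor range, and S100a8 (0.24), Retnlg (0.18) and Mmp8 (0.12) were among them. Eosinophil and mast cell genes were above 0 in 9 of 10 with a median of 0.09 and 0 at an unadjusted p under 0.05. All 10 lay in the olfactory receptor range, including Cma1 (0.20), Prg2 (0.18), Cpa3 (0.27) and Tpsb2 (0.14). Adipocyte genes had a median of -0.03, with 2 of 6 above 0, 0 at an unadjusted p under 0.05, and Adipoq at -0.22, Lep at -0.08, Plin1 at 0.07 and Fabp4 at 0.14. Adipoq and Lep lay in the olfactory receptor range.

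Melanocyte lineage genes, the mark of the tumour cells, had a list mean of 10.71 ± 0.05 log2 units under anti-Ang2 and 10.63 ± 0.23 under IgG (SD over tumours, n = 4 each), with a median difference of 0.02. Of 7 genes 4 were above 0, beside 53.5% of all genes. Tyrp1 (0.22) was the 1 gene higher at an unadjusted limma p under 0.05, beside 4.09% of all genes. Mlana was at 0.38 and Pmel at 0.25. Dct, at -0.11, was the 1 gene whose groups did not overlap, beside 3.74% of all genes. The Dct groups almost touched at 13.62. Skeletal muscle genes were below 0 in 9 of 9 with a median of -1.32, while 53.5% of all genes were above 0. At an unadjusted limma p under 0.05, 7 were lower, beside 3% of all genes. The muscle list mean was 9.59 in IgG replicate 1 and 8.26 in IgG replicate 2. It was 6.43 to 7.51 in the other IgG and 6.06 to 7.56 in the anti-Ang2 tumours. Acta1 was at -2.42 (SE 0.90), Myh1 at -1.32, Eno3 at -1.27 and Myh2 at -1.08. Hypoxia genes were above 0 in 13 of 13 measured, beside 53.5% of all genes, with a median of 0.47. At an unadjusted limma p under 0.05, 10 were higher, beside 4.09% of all genes. The groups of 6 did not overlap, with anti-Ang2 higher, beside 2.28% of all genes. The hypoxia list mean was 9.33 to 9.84 in anti-Ang2 and 8.69 to 9.21 in IgG tumours, without overlap, as for Mrc1 and Arg1. Kdm3a (0.54), P4ha2 (0.58), Ndrg1 (1.19) and Slc2a1 (0.72) were among the genes of this list. Anti-Ang2 replicate 1 had the highest hypoxia mean and the highest Arg1 level, and IgG replicate 1 the lowest of both. Mrc1 did not follow that order. It was highest in anti-Ang2 replicate 2 (8.06) and, among the IgG tumours, highest in IgG replicate 1 (7.37). The part of muscle, hypoxia and neutrophil signal in the differences of Mrc1 and Arg1 was not tested.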

How the data were processed

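Total RNA of 8 tumours, 250 ng each, was labelled as biotinylated single-stranded cDNA for Affymetrix whole-transcript arrays, per the labels' protocols. The values the authors deposited are linear intensities, 1 for each probe set in each tumour, and their background correction and normalization are not given in the sources used here. Per the file headers, a deposited ratio sets anti-Ang2 against IgG, and it was checked to be that of the linear means. The deposited p-value per probe set was not used. The series value table held the same intensities (largest relative difference 4.94e-10). Log2 was taken of the deposited intensities here. Of 24648 probe sets, 24643 had all values and 22840 of these had 1 gene symbol, updated through Entrez IDs. The gene annotation of 2306 is cut short, and these may stand for more genes. Array medians were 6.09 to 6.15 log2 units, and no 2 arrays held identical values. The labels do not say that the tumours came from separate experiments, so p-values measure the spread between these 8 samples.

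Anti-Ang2 was compared with IgG over all genes by limma 3.58.1 in R 4.3.3 (lmFit, eBayes, no covariate, Benjamini-Hochberg, threshold 0.05), a procedure tested on simulated data. The 4 arrays per group limit the precision (median SE 0.108). The 10 genes and the 15 lists were chosen with earlier results of these data known. From each list up to 4 genes with the largest absolute moderated t were named, and for Mrc1 and Arg1 the 5 genes with the highest group-centred r, leaving out predicted genes. Correlations used exact permutation within groups. Alternative settings covered the normalization (quantile, median centring), a filter on dim genes, eBayes options, array weights, all probe sets, a replicate block and each array left out. Counts above 0 with an array left out were added after seeing the data. Sequences are from RefSeq, GRCm38.p6.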

Additional observations from a re-analysis of the deposited data

Results flagged for a closer look

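In 2 of 20 groups of 4 tumours (10 genes, 2 antibodies), 1 tumour stood far from the other 3, its gap to the nearest being a larger part of the group's range than Dixon's critical value. Chance singles out about 1 in 20 such groups. Anti-Ang2 replicate 2 had an Mrc1 level of 8.06 log2 units, where the other 3 anti-Ang2 tumours had 7.66 to 7.69 (gap over range 0.924). IgG replicate 1 had a Stab1 level of 7.79, where the other 3 IgG tumours had 6.78 to 6.90 (gap over range 0.887). The same tumour had the highest general macrophage mean (7.63) and the highest skeletal muscle mean (9.59) of all 8.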

How the results depend on the processing

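The differences of Mrc1 and Arg1 moved by less than the spread between replicates under quantile normalization, median centring, subtraction of the macrophage mean, the ratio of linear means, the replicate block and each array left out. Without 1 array they ranged from 0.72 to 1.08 for Mrc1 and from 0.50 to 0.73 for Arg1. The median of the 10 genes was lowest, 0.01, without IgG replicate 3 and highest, 0.24, when IgG replicate 1 was left out, and that of the general macrophage list lay between -0.13 and 0.08. Limma called 0 genes over all genes with every setting except without anti-Ang2 replicate 2, where it called 1, Prnd (adjusted p = 0.0333), so the count with 1 array left out was 0 to 1. With the replicate number as a block limma also called 0, and the difference of Mrc1 was 0.91 as without the block. Deviations of same-numbered tumours correlated at -0.05 to 0.08, so the numbers gave no sign of pairing. Whether tumours shared a donor or batch was not tested. The relation to the macrophage mean turned its sign without the 2 farthest tumours for Mrc1 (-0.04), Chil3 (-0.56), Stab1 (-0.34) and Clec10a (0.89), and the cause was not tested. Signal near the olfactory receptor range limits what can be said of Retnla, Chil3, Cd163, Mgl2 and Clec10a.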
